A study of Arabidopsis thaliana with 9 samples.

Results

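Abscisic acid is the plant hormone of drought, dormancy and slowed growth, and its level is set by the balance of its synthesis and its breakdown. Binding of NAC103, a transcription factor of the plant NAC family, was examined at 10 genes of these branches, out of 27444 nuclear protein-coding genes of Arabidopsis thaliana. They were chosen by name and locus and not by a rule on measured values, but with earlier results of these data known. The 6 genes of synthesis were NCED3 (AT3G14440), NCED5 (AT1G30100), NCED6 (AT3G24220), NCED9 (AT1G78390), ABA2 (AT1G52340) and AAO3 (AT2G27150). The 4 of breakdown were CYP707A1 (AT4G19230), CYP707A2 (AT2G29090), CYP707A3 (AT5G45340) and CYP707A4 (AT3G19270). A peak was counted for a gene where it overlapped the gene span or the 1000 bp on either side of it, by at least 1 bp.

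NAC103 was mapped in 2 ways. Chromatin immunoprecipitation (ChIP) used whole seedlings of 35S:NAC103-GFP, in which the 35S promoter drives the tagged factor strongly in most tissues. They were 5 days old, had been treated with the proteasome inhibitor MG132 (20 µM, 24 h) and were fixed with 1% formaldehyde (3 replicates, each with its own input). In DNA affinity purification (DAP), NAC103-Halo protein was offered bare genomic DNA of untreated 5-day-old Col seedlings, so that no chromatin was present (2 replicates that share 1 input). No ChIP from untagged or GFP-only plants was used here, the seedlings mix all cell types, and the spread between replicates may be technical, since the labels do not give their origin.

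The ChIP lists held 4187, 14318 and 17074 nuclear peaks in replicates 1, 2 and 3, and the DAP lists 20746 and 20962. ChIP replicate 1 stood apart by its short list, and every result that rests on it, or on 2 ChIP replicates, depends on this unequal length. Each peak carries the authors' fold enrichment over background, which is used here only within its own list, as a percentile. The percentile is the peak's rank by fold among the list's nuclear peaks, counted from the lowest, in percent. Peaks of equal fold share their average rank. Nuclear peaks had a median fold of 1.94, 2.06 and 2.47 in ChIP replicates 1, 2 and 3, and of 2.74 and 2.71 in DAP replicates 1 and 2. From the fold and the p-value of a peak the number of sequenced fragments stacked at its summit could be worked out, and intervals on fold (95%, exact Poisson) cover counting error of that stack only. Genes are not replicates and no test across them was made. Counts of genes are instead set beside the share of all coding genes that the same rule called.

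The hormone is made from carotenoids. The NCED enzymes cleave an epoxycarotenoid in the plastid to xanthoxin, the step taken to limit the pathway: NCED3 is the main drought-induced member, and NCED6 and NCED9 act mostly in seeds. ABA2 then turns xanthoxin into abscisic aldehyde, and AAO3 oxidises the aldehyde to the hormone. CYP707A1 to CYP707A4 are cytochrome P450 enzymes that hydroxylate abscisic acid and so start its breakdown, CYP707A1 and CYP707A2 mainly in seeds and CYP707A3 mainly in vegetative tissue.

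Both branches were bound in both assays. In ChIP, 8 of the 10 genes had a peak in at least 2 of 3 replicates, where this rule called 44.3% of all coding genes. They were 5 of the 6 synthesis genes and 3 of the 4 breakdown genes. In DAP, 9 of the 10 had a peak in both replicates, against 59.9% of all coding genes, made up of 5 of 6 synthesis genes and 4 of 4 breakdown genes. Both conditions were met by 7 genes, 4 of synthesis (NCED3, NCED5, NCED6 and NCED9) and 3 of breakdown (CYP707A1, CYP707A2 and CYP707A3), where 28.2% of all coding genes did. The exceptions were ABA2, with ChIP peaks in replicate 3 alone, AAO3, with no DAP peak, and CYP707A4, with no ChIP peak. A ChIP peak in any replicate was found at 9 of the 10 genes and at 68.7% of all coding genes.

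The ChIP count rests on replicates 2 and 3. By single list, 4 of the 10 genes had a peak in ChIP replicate 1 (17.0% of all coding genes did), 8 in replicate 2 (50.8%) and 9 in replicate 3 (59.7%). Each DAP replicate had a peak at 9 (64.4% and 64.7% of all coding genes). Without ChIP replicate 2, or without replicate 3, 4 genes kept peaks in both remaining ChIP lists: NCED5, NCED6, CYP707A1 and CYP707A3. Those rules called 16.3% of all coding genes without replicate 2 and 14.9% without replicate 3. Together with DAP the same 4 genes were called, and 10.5% and 9.71% of all coding genes. Without replicate 1, 8 genes were called in ChIP (42.3% of all coding genes) and 7 in both assays (26.9%). NCED5, NCED6, CYP707A1 and CYP707A3 are also the genes with a peak in all 3 ChIP lists, where 14.6% of all coding genes had one, and in all 5 lists, where 9.50% had one. With each list reduced to its 4187 peaks of highest fold, ChIP called 6 of the 10 genes (15.4% of all coding genes) and DAP 4 (16.9%). Only CYP707A3 was then called in both (3.26%).

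**Figure D1:**
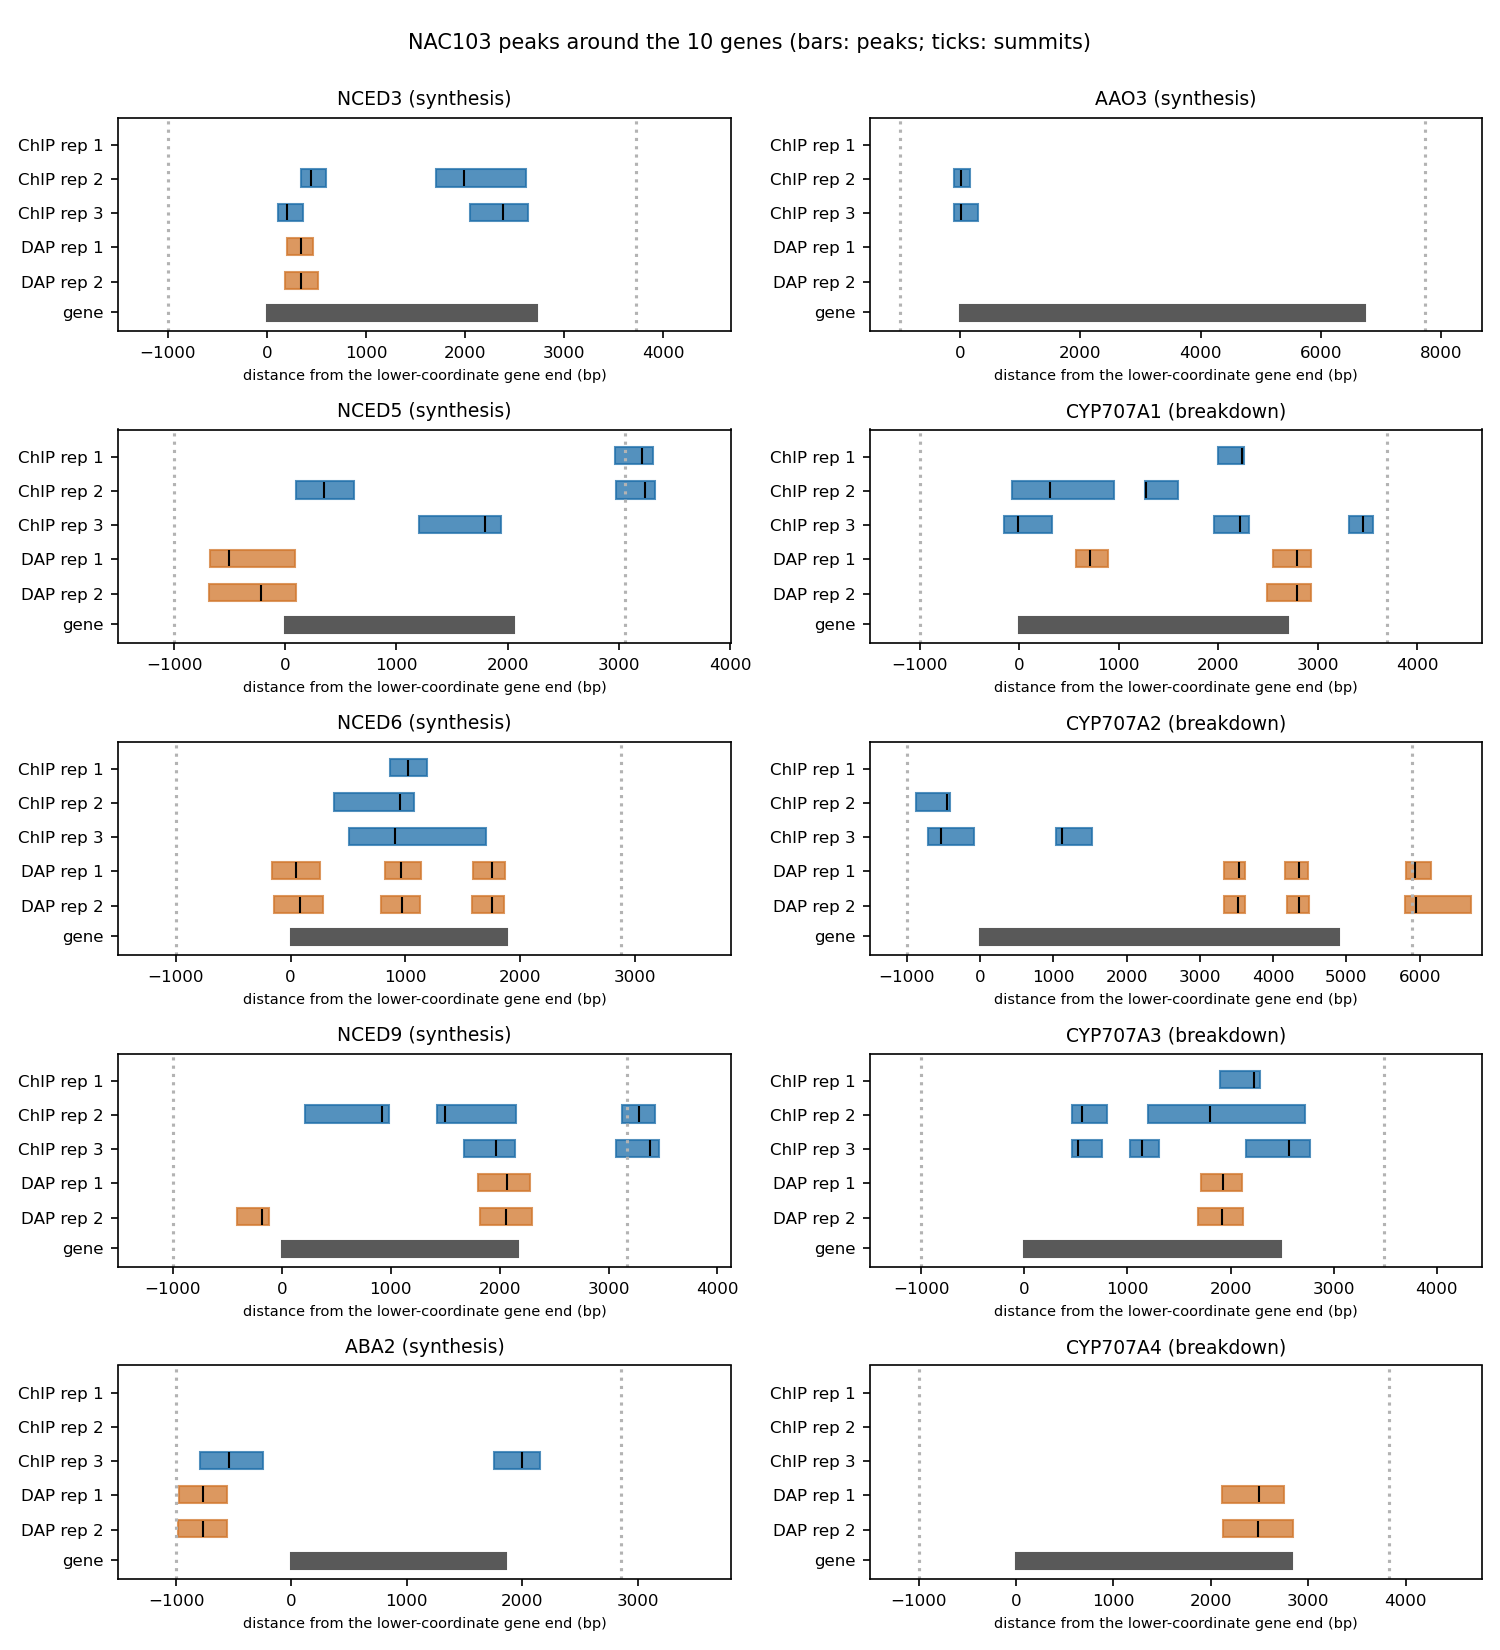
Peaks of the 5 lists around each of the 10 genes; the x axis is the distance in bp from the gene end with the lower coordinate, blue bars are ChIP peaks, orange bars DAP peaks, black ticks summits, the dark bar the gene and dotted lines the limits of the window. All 5 lists have a summit near the middle of NCED6, AAO3 has ChIP peaks alone and CYP707A4 DAP peaks alone.

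NCED6 was the gene at which the lists coincided most closely. Its ChIP peaks lay on chromosome 3 (TAIR10) at 8762283 to 8762606 in replicate 1, 8761797 to 8762497 in replicate 2 and 8761926 to 8763124 in replicate 3. They had folds of 2.10 (95% interval 1.65 to 2.63), 2.23 (1.70 to 2.88) and 3.08 (2.41 to 3.89). The middle DAP peak had folds of 3.38 (2.88 to 3.94) and 3.82 (3.30 to 4.40), at 8762240 to 8762556 and 8762207 to 8762550. The 5 summits fell within 118 bp of each other, 909 to 1027 bp from the lower-coordinate gene end, inside a gene of 1885 bp. A further DAP site lay at each end of NCED6 in both replicates, with folds of 3.17 and 3.14 at the lower end and of 2.32 and 2.01 at the higher end. The wide ChIP peak of replicate 3 also reached the site at the higher end, but its summit was 845 and 844 bp away from the DAP summits there.

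NCED3 had a site near each end of the gene in ChIP and at one of them in DAP. Near its lower-coordinate end on chromosome 3, ChIP peaks stood at 4831627 to 4831879 in replicate 2 (fold 2.12, interval 1.60 to 2.75) and 4831392 to 4831650 in replicate 3 (fold 2.79, 2.12 to 3.61). The DAP peaks overlapped both of these, with folds of 2.59 (2.16 to 3.09) and 3.06 (2.60 to 3.59) and summits 2 bp apart. The ChIP summits flanked the DAP summits, at 93 to 147 bp from them. The stronger ChIP site of NCED3 lay toward the other end, with folds of 2.34 in replicate 2 and 3.61 in replicate 3, and had no DAP peak. Replicate 1 had no peak within 5833 bp of the gene.

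NCED9 held one of the strongest DAP sites among the 10 genes, and weak ChIP sites. Its DAP peaks at 29492508 to 29492984 and 29492523 to 29493000 of chromosome 1 had folds of 5.68 (5.03 to 6.39) and 6.54 (5.86 to 7.29). These folds stood at the 93.4 and 95.9 percentile of their lists, from stacks of 273 and 328 fragments. ChIP peaks overlapped this site in replicates 2 and 3, with folds of 2.07 (1.59 to 2.64) and 2.25 (1.66 to 2.999), at the 50.8 and 35.9 percentile. Only the summit of replicate 3 came close to the DAP summits, at 95 and 89 bp, while that of replicate 2 was 562 and 556 bp away. A separate pair of ChIP peaks lay beyond the higher-coordinate end, with summits 1109 and 1213 bp outside NCED9, and overlapped the window by their edges. Peaks of single lists lay nearer the other end of NCED9, in ChIP replicate 2 (fold 2.11) and DAP replicate 2 (fold 1.79).

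NCED5 had peaks in all 5 lists, but at different places. In ChIP, replicates 1 and 2 shared a site at 10574275 to 10574619 and 10574285 to 10574632 of chromosome 1, with folds of 2.01 and 2.48. The summits of this site lay 1157 and 1181 bp outside the gene, and the peaks reached the window by their edges. Replicate 2 had another peak inside NCED5 (fold 2.07) and replicate 3 another one (fold 2.45, 10572509 to 10573249), which did not overlap each other. The DAP peaks covered the opposite end of the gene, with folds of 2.36 and 2.53 and summits 293 bp apart, the widest gap between DAP replicates among the 10 genes. One ChIP peak, in replicate 2, overlapped a DAP peak here, by 7 bp.

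The later steps of synthesis were each bound in 1 assay by the rules above. AAO3 had a ChIP site at its lower-coordinate end, 11601626 to 11601884 of chromosome 2 in replicate 2 and 11601620 to 11602018 in replicate 3. The folds were 2.44 (1.85 to 3.15) and 3.33 (2.59 to 4.22), at the 79.2 and 83.9 percentile, and the summits lay 7 and 19 bp inside the gene. No DAP peak came within 2009 bp of AAO3 in replicate 1 or 2583 bp in replicate 2, although its span of 6724 bp is the longest of the 10. At ABA2 the DAP peaks were the strongest of all 10 genes, with folds of 7.01 (6.28 to 7.79) and 6.96 (6.25 to 7.73), at the 96.9 and 96.8 percentile. They lay at 19488818 to 19489235 and 19488810 to 19489239 of chromosome 1. Their summits were 764 and 763 bp outside ABA2 and inside the neighbouring gene AT1G52330, which itself overlaps the end of ABA2 by 121 bp. ChIP replicate 3 had a peak there (fold 2.50, 1.87 to 3.28) with its summit 221 and 220 bp from those of DAP. Its other ABA2 peak (fold 2.11) had its summit nearer to AT1G52342 than to ABA2. When a peak counted for its nearest coding gene alone, ABA2 had none in DAP.

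Among the breakdown genes CYP707A3 had the highest folds of all 10 genes in ChIP replicates 2 and 3. In replicate 3 the peak at 18370683 to 18371300 of chromosome 5 had a fold of 4.02 (3.20 to 4.98). In replicate 2 the peak at 18369735 to 18371256 had a fold of 3.41 (2.75 to 4.20), and in replicate 1 that at 18370427 to 18370818 had 1.67 (1.26 to 2.17). Within their lists these stood at the 94.5 percentile in replicate 3, the 97.2 in replicate 2 and the 8.73 in replicate 1, near the top in replicates 2 and 3 and near the bottom in replicate 1. DAP peaks lay in the same part of CYP707A3, at 18370244 to 18370639 and 18370213 to 18370653, with folds of 4.58 (3.998 to 5.23) and 4.16 (3.61 to 4.76). They overlapped the ChIP peaks of replicates 1 and 2, with summits 299 and 307 bp and 121 and 113 bp apart. The replicate 3 peak began beyond their end. A weaker ChIP site nearer the other end had folds of 1.88 in replicate 2 and 2.16 in replicate 3.

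CYP707A1 was bound at several places that differed between the assays. The ChIP site at its lower-coordinate end had a fold of 2.39 (1.83 to 3.07) in replicate 2 and 3.87 (3.07 to 4.82) in replicate 3, at 10521186 to 10522217 and 10521106 to 10521588 of chromosome 4. Replicate 1 had no peak there. Its single peak at CYP707A1 was a weak one farther along the gene, at 10523254 to 10523518, with a fold of 1.55 (1.17 to 2.02) and a −log10 q of 1.303. Replicate 3 had a peak at that second place too, with a fold of 2.43 and a summit 17 bp away. In DAP, the site of both replicates lay just beyond the higher-coordinate end, with folds of 2.92 and 2.35 and the same summit position, 90 bp outside the gene, and it overlapped no ChIP peak. DAP replicate 1 had another peak inside the gene (fold 3.15) that overlapped the ChIP peak of replicate 2, with summits 405 bp apart. The remaining peaks of CYP707A1 were in single ChIP lists, one of fold 3.38 in replicate 3 with its summit 758 bp beyond the gene and one of fold 1.53 in replicate 2, at the 0.43 percentile.

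CYP707A2 had its ChIP and DAP peaks at opposite ends. ChIP peaks of replicates 2 and 3 lay outside the lower-coordinate end, at 12493954 to 12494423 and 12494119 to 12494751 of chromosome 2, with folds of 1.95 (1.46 to 2.55) and 2.64 (2.02 to 3.40). DAP gave 3 sites, each in both replicates, in and beyond the other end. The strongest of those inside the gene had folds of 4.02 (3.48 to 4.63) and 3.60 (3.10 to 4.16), at 12498992 to 12499295 and 12499013 to 12499319. The outermost site, with folds of 3.17 and 3.64, had its summits nearer to GLR2.9 (AT2G29100) than to CYP707A2. ChIP replicate 3 also had a peak inside the gene (fold 2.60, summit 1126 bp from the lower-coordinate end). No ChIP peak overlapped any of the 3 DAP sites.

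CYP707A4 was bound in DAP alone. Its peaks at 6675800 to 6676442 and 6675818 to 6676532 of chromosome 3 had folds of 4.42 (3.84 to 5.05) and 4.46 (3.89 to 5.08), at the 84.9 and 85.6 percentile, with summits 2 bp apart inside the gene. The nearest ChIP peaks were 27888 bp from the gene in replicate 1, 2060 bp in replicate 2 and 1306 bp in replicate 3. The lists named no summit below a fold of 1.57, 1.58 and 1.62 in ChIP replicates 1, 2 and 3 where the background was at its most common level. Only 27.1%, 19.5% and 52.1% of the nuclear peaks of those lists were at that level. The background at CYP707A4 is not known, so the lowest detectable fold at this gene was not determined.

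**Figure D2:**
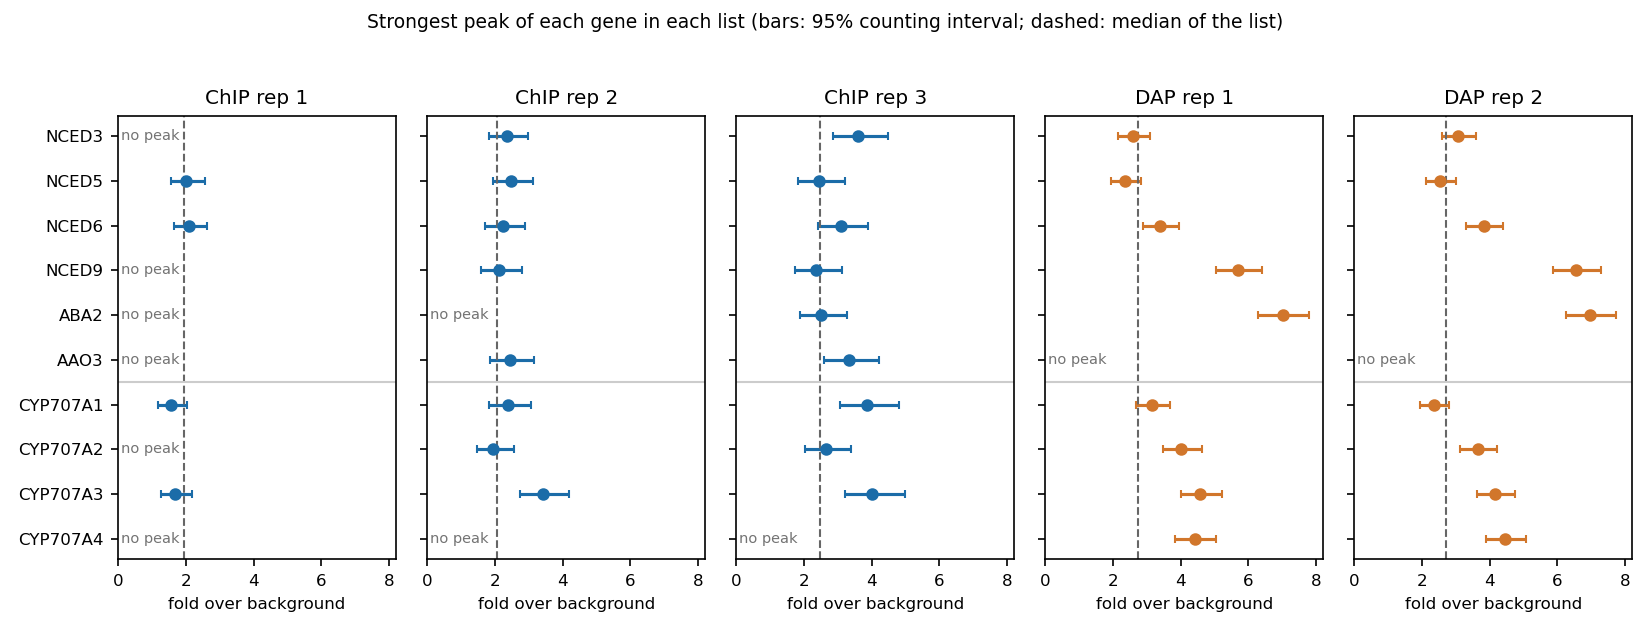
The authors' fold over background (x axis) of the strongest peak of each gene in each list, synthesis genes above the grey line and breakdown genes below it; points are single peaks, bars 95% Poisson intervals of the fragment stack, dashed lines the median fold of the list's nuclear peaks. ChIP folds lie between 1.55 and 4.02. The DAP folds of ABA2 and NCED9, between 5.68 and 7.01, are above those of the other genes in both DAP lists. The ABA2 summits in DAP lie nearest to the neighbouring gene AT1G52330.

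Set side by side, the branches had similar shares of their windows under peaks, apart from ChIP replicate 1, where each had peaks at 2 genes. Since the windows differ in length, the share of their bases under a peak was compared. It was 1.41% for synthesis genes and 3.14% for breakdown genes in ChIP replicate 1, 14.5% and 17.7% in replicate 2, and 16.0% and 16.3% in replicate 3. In DAP replicate 1 it was 2950 of 29423 bp for synthesis genes and 2418 of 20924 bp, or 11.6%, for breakdown genes. In DAP replicate 2 it was 11.5% for synthesis and 10.9% for breakdown genes. The breakdown share was the higher in 4 of the lists and the synthesis share in DAP replicate 2. Over the windows of all coding genes the shares were 1.43%, 7.48% and 7.58% in the ChIP replicates and 8.92% and 9.17% in DAP, so in ChIP replicates 2 and 3 both branches were covered more than the coding windows as a whole.

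In the strength of their peaks the branches had no common order across the lists. The highest ChIP folds belonged to breakdown genes in replicates 2 and 3: 3 breakdown peaks, at CYP707A1 and CYP707A3, and no synthesis peak stood above the 90 percentile of their list. Over all ChIP peaks the order was the other way, with 16 of 20 synthesis peaks and 7 of 15 breakdown peaks above the median fold of their list. The median percentile of fold in ChIP was 64.7 for synthesis and 4.93 for breakdown genes in replicate 1, 57.3 and 36.6 in replicate 2, and 51.2 and 57.7 in replicate 3. In replicate 1 the NCED5 and NCED6 peaks stood at the 59.5 and 69.8 percentile and the CYP707A1 and CYP707A3 peaks at the 1.12 and 8.73 percentile. In DAP, 4 synthesis peaks, those of NCED9 and ABA2, and no breakdown peak stood above the 90 percentile. The summits of the ABA2 peaks among these lay nearest to the neighbouring gene AT1G52330. Above the median fold of their list were 9 of 15 synthesis and 11 of 13 breakdown peaks of DAP. The median percentile of fold was 64.3 for each branch in DAP replicate 1, and 63.3 for synthesis and 74.5 for breakdown genes in DAP replicate 2.

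**Figure D3:**
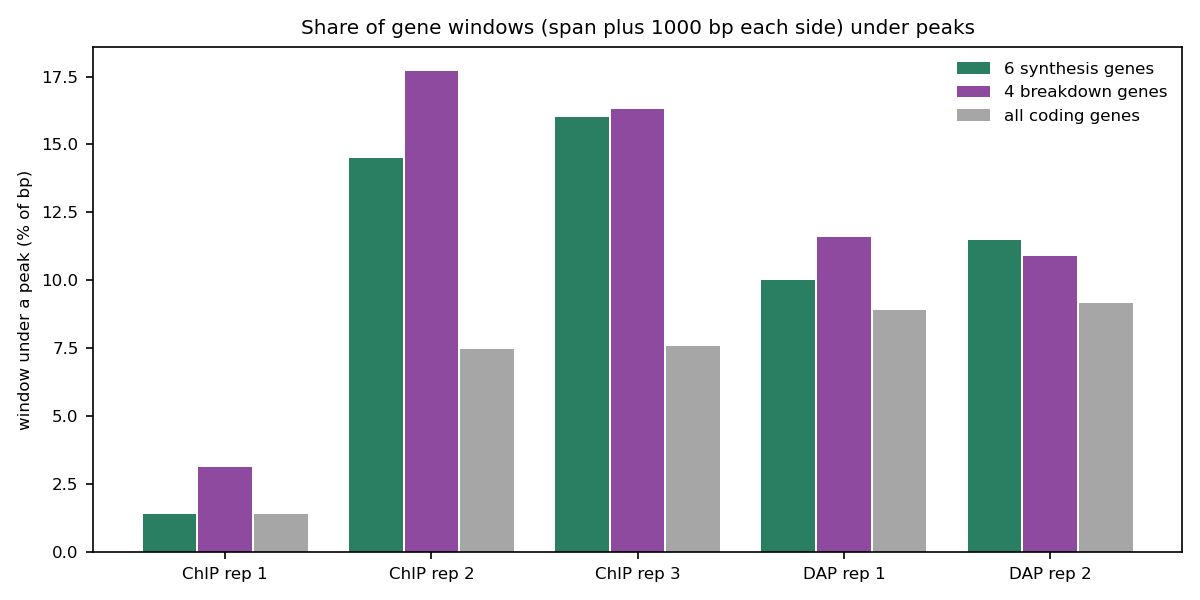
Share of the bases of gene windows (span plus 1000 bp on each side) that lie under a peak, in percent, for the 6 synthesis genes, the 4 breakdown genes and all coding genes, in each list. In ChIP replicates 2 and 3 both branches lie between 14.5% and 17.7%, against 7.48% and 7.58% for all coding genes; in DAP the bars differ less.

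ChIP and DAP shared some sites at the 10 genes and not others. Peaks of the replicates merged into 20 ChIP regions and 15 DAP regions at the 10 genes. Of these, 12 ChIP regions came from at least 2 replicates and 13 DAP regions from both. A region of the other assay overlapped 7 of the 20 ChIP regions and 8 of the 15 DAP regions. The share of all regions of the lists that overlap was not worked out. A ChIP region of at least 2 replicates overlapped a DAP region of both at NCED3, NCED6 and NCED9 among the synthesis genes and at CYP707A3 among the breakdown genes. That is 4 of 10 genes, where 12.2% of all coding genes had such a site. At NCED6 alone were the best summits of the assays within 100 bp, which held for 3.78% of all coding genes. Where each region had to cover 50% of the other, NCED3 alone was left (4.34%). At NCED6 the merged ChIP region of 1328 bp was too wide for its DAP region of 350 bp to cover 50% of it. Without ChIP replicate 2 the overlap held at NCED6 and CYP707A3 (4.31%), and so it did without ChIP replicate 3 (4.25%). At CYP707A3 without replicate 2, only the replicate 1 peak (fold 1.67, 8.73 percentile) itself overlapped the DAP peaks. It counted as a region of 2 replicates because it overlapped the replicate 3 peak. In regions of at least 2 replicates, the lowest and highest summits were a median of 111 bp apart in ChIP (12 regions, 12 to 1419 bp). In DAP they were 4 bp apart (13 regions, 0 to 293 bp). All peaks merged into a region count here. The 1419 bp, at CYP707A3, lay between 2 peaks of ChIP replicate 3 that a wide peak of replicate 2 joined. The DAP replicates share their input.

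Inside the genes lay 24 of the 35 ChIP summits and 19 of the 28 DAP summits. From the nearer gene end, summits at synthesis genes were a median of 605 bp away in ChIP and 217 bp in DAP, and those at breakdown genes 521 bp in ChIP and 564 bp in DAP. Which end is the start of the gene was not used here, so a site at an end is not called a promoter site. ChIP peaks at these genes were mostly of modest certainty. A −log10 q of 10 was reached by 7 of 35 (0 in replicate 1, 1 in replicate 2 and 6 in replicate 3). It was reached by 26 of the 28 DAP peaks. The shares of all listed peaks that lie inside genes or reach this threshold were not worked out. These counts are thus not read as particular to these genes. By this stricter threshold CYP707A3 alone was bound in 2 ChIP replicates, where 5.68% of all coding genes were. In DAP 9 genes kept peaks in both replicates (51.9% of all coding genes), and CYP707A3 was the gene called in both assays (3.52%).

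Other genes of the pathway, from a list of 34, were bound in ChIP near the rate of all coding genes, and in DAP above it. They covered the carotenoid precursors, further synthesis steps, relatives of the NCED enzymes, conjugation and its reversal, and transport of the hormone. In ChIP 16 of the 34 had peaks in at least 2 replicates, or 47.1%, against 44.3% of all coding genes. In DAP 26 had them in both replicates, or 76.5%, against 59.9%. Both conditions were met by 13, or 38.2%, against 28.2%. These were 2 of 7 carotenoid precursors, 2 of 9 further synthesis genes and 1 of 4 relatives of the NCED enzymes. The rest were 3 of 8 genes of conjugation, hydrolysis and onward breakdown and 5 of 6 transport genes, so the transport list stood out. Among the further synthesis genes, 2 of 9 were bound in ChIP, where 44.3% of all coding genes were, and 8 of 9 in DAP, where 59.9% were. ABA1, which makes the epoxycarotenoid substrate, had folds of 2.45 and 3.04 at its strongest peaks in ChIP replicates 2 and 3, and of 3.05 and 3.48 in DAP. ABA4, which acts at the next xanthophyll step, had 2.10 and 2.79 in ChIP and 4.91 and 5.31 in DAP. At neither did the regions of the assays overlap.

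Of the 6 transport genes, 5 were bound in ChIP (44.3% of all coding genes) and 6 in DAP (59.9%), and 5 had overlapping regions of both assays (12.2%). ABCG25, an exporter of abscisic acid, had its strongest ChIP peaks at 1.72, 2.45 and 3.28 in the 3 replicates and DAP peaks at 2.57 and 2.67. ABCG30, an importer in seeds, had 2.39, 3.04 and 3.23 in ChIP and 4.73 and 4.08 in DAP. NPF4.6, an importer, had 1.68, 2.23 and 3.04 in ChIP and 5.20 and 5.15 in DAP. The others bound in both were ABCG31, with 2.09 and 2.45 in ChIP replicates 2 and 3, and DTX50, with 2.14 and 2.55. Only at ABCG30 did the strongest ChIP and DAP peaks overlap each other. At ABCG25, ABCG31, DTX50 and NPF4.6 they lay at separate places, so their folds are not those of a single shared site. The transport genes bound in both assays had spans of 5855 bp (ABCG25), 7766 bp (ABCG30), 6822 bp (ABCG31), 2174 bp (DTX50) and 4145 bp (NPF4.6), and ABCG40, with ChIP peaks in 1 list, had 6469 bp. The median was 2596.5 bp for the 10 genes and 2078 bp for all coding genes, and the part of gene length in these counts was not tested.

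Conjugation to glucose, the other route that removes the hormone, was bound in part. Of the 8 genes of conjugation, hydrolysis and onward breakdown, 4 were bound in ChIP (44.3% of all coding genes) and 5 in DAP (59.9%). In both assays 3 were bound (28.2%), so these counts are near the shares of all coding genes. UGT71C5, a glucosyltransferase of abscisic acid, had folds of 1.92, 2.33 and 3.87 in ChIP and 3.42 and 3.14 in DAP, in overlapping regions. The adjacent genes UGT71B6 and UGT71B7 both counted a ChIP peak with folds of 1.74, 2.57 and 3.18 in the 3 replicates, and of them UGT71B7 alone had DAP peaks in both replicates (2.61 and 2.11). UGT71B8 had 2.61 and 3.53 in ChIP replicates 2 and 3 and 4.48 and 3.94 in DAP. The remaining genes bound in both assays included CRTISO and BCH1 of the 7 carotenoid precursors (28.6%, against 28.2% of all coding genes). The last was CCD1, a carotenoid cleavage enzyme outside the hormone pathway. BCH1 had ChIP folds of 1.90, 2.17 and 2.83.

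**Figure D4:**
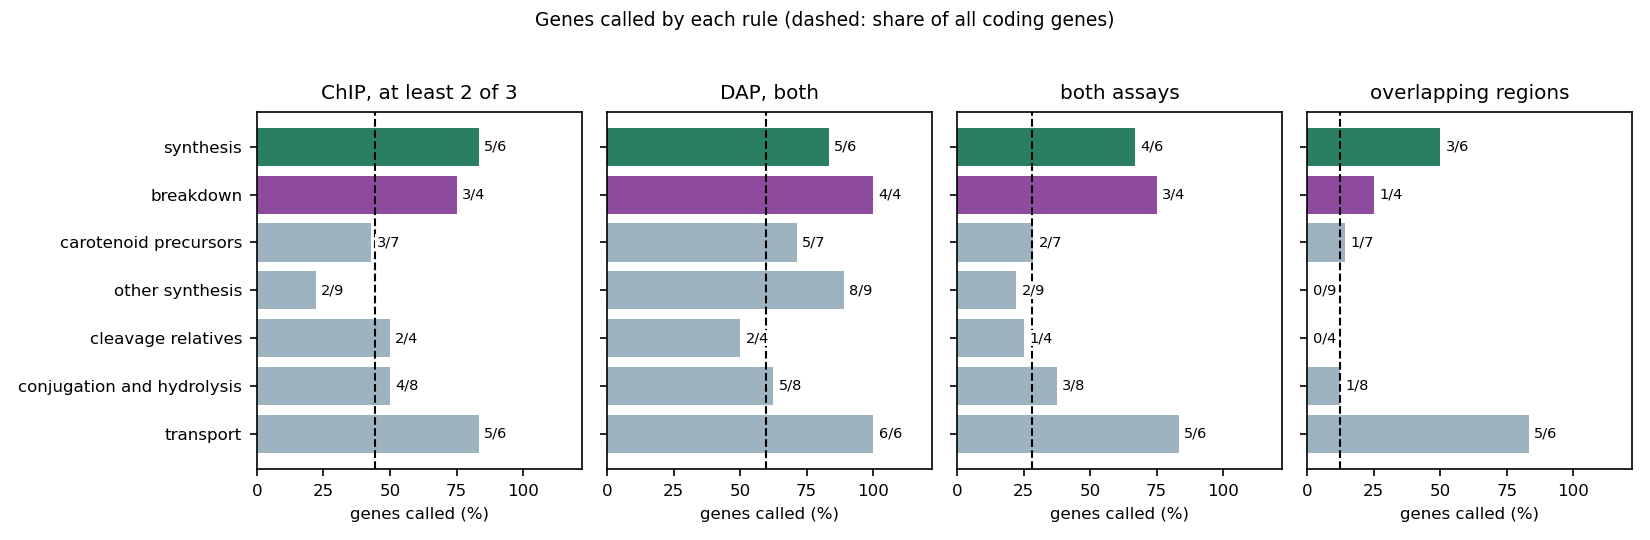
Percentage of genes called (x axis) in the synthesis and breakdown branches and in 5 lists of other pathway genes, by 4 rules; numbers are genes called of genes listed and dashed lines the share of all coding genes. Synthesis, breakdown and transport genes lie above the dashed line by every rule, and the further synthesis genes lie below it in ChIP (2 of 9) and above it in DAP (8 of 9).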

How the data were processed

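Peaks of 3 ChIP and 2 DAP samples were used; the 4 inputs have no separate list here. BWA, MACS2 and the build TAIR10 are named in the submitters' processing notes, without versions. Each list is of one replicate against input, per the labels. The deposited lists give each peak a score, a fold (ratio), a −log10 p and −log10 q, and a summit. Peaks of organelle genomes were left out.

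Gene spans, without strand, came from a RefSeq table of the assembly TAIR10.1, so its coordinates are not printed. In 25 of 25 segments of the genome, more ChIP regions had their summit in the 300 bp flanking a gene than did so when moved by 2000 bp. Peaks of one assay overlapping by 1 bp were merged into regions; a region's best summit is that of highest percentile. Fragment stacks at summits were solved from fold and p-value, assuming that MACS2 adds 1 to stack and background. A whole number fitted −log10 p within 0.01 for 99.1% to 99.9% of nuclear peaks per list. Calculations used Python 3.11.15 with scipy 1.17.1 and were tested on simulated data. The 10 genes and the lists were chosen with earlier results of these data known. Every member is named, and other pathway genes where called in both assays or in 3 ChIP lists. No test over genes was made. Alternatives were other windows, summits, nearest genes, stricter peaks, equal list lengths and replicates left out. No genome or promoter sequence was used here.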

Additional observations from a re-analysis of the deposited data

How the results depend on the processing

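The counts were recomputed under each alternative, 77 values in all, of which 59 stayed within 1.5 times of the reported count. Windows of 0 or 2000 bp, the summit rule and the nearest gene rule kept all counts within that range. So did the demand, chosen after seeing the data, that peaks of replicates overlap each other. With the window of 0 bp, breakdown genes fell from 3 to 2 in ChIP and in both assays. Synthesis genes in DAP fell from 5 to 4 with that window and with the nearest gene rule. Shares of all coding genes were not worked out for these alternatives. With a −log10 q of at least 10, ChIP called 0 synthesis and 1 breakdown gene, and both assays together 0 and 1 (3.52% of all coding genes). With 4187 top peaks per list, DAP called 2 synthesis and 2 breakdown genes (16.9% of all coding genes), and both assays 0 and 1 (3.26%). With peaks in all 3 ChIP replicates, 2 synthesis and 2 breakdown genes were called in ChIP (14.6% of all coding genes). In both assays 2 and 2 were called (9.50%). Leaving out single replicates gave 2 to 5 synthesis and 2 to 3 breakdown genes in ChIP, 5 and 4 in DAP, and 2 to 4 and 2 to 3 in both assays. The low values came without ChIP replicate 2 or 3. The 5 pairs of overlapping ChIP and DAP regions became 1 with 50% overlap of each and 1 with summits within 100 bp, and 2 to 6 when a replicate was left out, an alternative added after seeing the data (2 without ChIP replicate 3, 3 without ChIP replicate 2). No paired analysis was possible because the results come from no test. At the most common background, the lists named no summit under a fold of 1.57, 1.58 and 1.62 in ChIP replicates 1, 2 and 3 and of 1.39 in each DAP replicate, so weaker enrichment there was not detectable.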
